A study of Mus musculus with 6 samples.

Results

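The genes described here carry glucose into the cell, break it down to pyruvate, exchange pyruvate with lactate and admit pyruvate to the mitochondrial cycle, with the first enzyme of the pentose phosphate branch beside them. The set was chosen by function, with earlier results of these libraries known, and holds 32 of the 42450 genes listed in the count table. Of the 32, 31 passed the filter on low counts and were tested among 18905 genes. The remaining gene was Pfkfb4, which is accounted for below. Mouse embryonic stem cells (mESC) were profiled by total RNA-seq to ask how a lower dose of Srrm2, a splicing factor of nuclear speckles, alters gene expression. The 3 WT libraries came from the male line E14tg2a.4, and the 3 Srrm2+/- libraries from its heterozygous gene-trap derivative CG0630, which is 1 clone with the trap cassette in the first exon of Srrm2. Both lines were kept on gelatin in GMEM with LIF, the cytokine that maintains self-renewal, and were moved to serum-free ESGRO medium with LIF before collection. The labels give 24 h or 72 h in that medium for the series, and the study's methods name a time between these for total RNA-seq. Each line was frozen in 3 independent batches that served as replicates, at later passages for WT than for Srrm2+/-, so genotype, clone and passage cannot be told apart.

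Srrm2 itself (chr17:23790532-23824741, GRCm38, the build of all coordinates given here) stood at 91.2, 98.3 and 97.7 normalized CPM, counts scaled to an equal library size, in WT replicates 1, 2 and 3, and 62.3, 56.2 and 59.6 in the Srrm2+/- replicates. The difference was -0.69 on the log2 scale (SE 0.05, adjusted p = 2.38e-05), with no overlap between groups. Here and below, fold changes are Srrm2+/- over WT, and called genes are those under 0.05 in adjusted p in edgeR's quasi-likelihood test across all genes tested. Library totals ranged from 54151532 to 69933465 estimated counts. Summed markers of embryonic stem cells, 8 genes, lay at 4199 to 4311 CPM in WT and 3600 to 3693 in Srrm2+/-, with 5 genes lower and 1 higher. Klf4 (log2 -0.82), Nanog (-0.72), Esrrb (-0.38), Zfp42 (-0.31) and Sox2 (-0.30) were lower and Utf1 (0.52) was higher, while Pou5f1 (-0.04) and Tdgf1 (-0.07) were not called. Summed markers of other cells were low, apart from 5 neural markers at 74.7 to 80.6 CPM in WT and 50.1 to 53.2 in Srrm2+/-, of which 3 were tested and 2 were lower. The 7 fibroblast markers summed to 3.36 to 3.63 CPM in WT and 6.53 to 9.89 in Srrm2+/-, the 6 trophoblast markers to 4.70 to 5.39 and 9.61 to 10.6, the 6 primitive endoderm markers to 1.90 to 2.46 and 2.38 to 3.38, and the 6 skeletal muscle markers to 1.10 to 1.33 and 5.98 to 7.18. Of those tested, 3 of 5 fibroblast, 2 of 5 trophoblast, 1 of 4 primitive endoderm and 1 of 2 muscle markers were higher, and 0 were lower by edgeR. These marker counts stand beside 13.6% higher and 11.7% lower over all genes tested. Most of the trophoblast rise was Krt7, at 2.81 ± 0.198 CPM in WT and 7.23 ± 0.755 in Srrm2+/- (SD, n = 3). The other trophoblast marker called higher was Eomes, at 0.567 and 0.987 CPM. Some uncalled markers had negative values, with a lowest log2 fold change of -0.70 for fibroblast, -0.77 for primitive endoderm and -0.33 for trophoblast markers. The muscle-defining genes Myod1 and Ckm were at 0 in all 6 libraries, whereas Acta1, which encodes skeletal alpha-actin, rose from 17, 8 and 18 estimated counts to 410, 344 and 263 (log2 4.28, SE 0.27, adjusted p = 1.14e-05), and Tnnt3, not tested, held 1, 0 and 0 and then 11, 15 and 23. The part of these shifts in the values below was not tested. In RNA from whole cultures, fewer cells of a type and less RNA per cell cannot be told apart.

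As background, glycolysis splits glucose into pyruvate and yields ATP without oxygen. Hexokinase and phosphofructokinase are its main points of control, and pyruvate is then either reduced to lactate and exported or oxidised through pyruvate dehydrogenase. Naive mESC use both glycolysis and mitochondrial respiration, whereas cells that move towards the primed state rely more on glycolysis. Many steps are encoded by several isoform genes whose enzymes differ in affinity and regulation, and several are textbook targets of the hypoxia-inducible factor (HIF) and of MYC.

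Because HIF and MYC bind short motifs near the starts of glycolytic genes, the promoters of the gene pair with opposite changes at the lactate step and of the strongest rises were read from RefSeq (GRCm38.p6). Each is printed 5′ to 3′ on the strand of its gene, limited to the bases ahead of any annotated exon, with the cores ACGTG and GCGTG (either strand) in capitals.

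Slc2a1, chr4:119108495-119108710, plus strand: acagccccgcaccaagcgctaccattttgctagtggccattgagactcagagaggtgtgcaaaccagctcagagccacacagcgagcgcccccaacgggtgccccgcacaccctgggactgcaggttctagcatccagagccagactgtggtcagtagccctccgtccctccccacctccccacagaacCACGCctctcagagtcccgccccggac

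Slc16a3, chr11:120948817-120949052, plus strand: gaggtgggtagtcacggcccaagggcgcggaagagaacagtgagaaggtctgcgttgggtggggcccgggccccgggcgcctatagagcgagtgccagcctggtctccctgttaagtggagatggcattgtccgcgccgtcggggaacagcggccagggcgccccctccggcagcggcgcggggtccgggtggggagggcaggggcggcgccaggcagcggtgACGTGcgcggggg

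Ldha, chr7:46845554-46845803, plus strand: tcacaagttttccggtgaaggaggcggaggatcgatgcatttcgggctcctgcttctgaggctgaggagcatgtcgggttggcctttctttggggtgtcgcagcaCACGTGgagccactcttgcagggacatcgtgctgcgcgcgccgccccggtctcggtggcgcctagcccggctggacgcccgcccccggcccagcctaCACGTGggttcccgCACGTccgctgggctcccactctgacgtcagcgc

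Ldhb, chr6:142507958-142508207, minus strand: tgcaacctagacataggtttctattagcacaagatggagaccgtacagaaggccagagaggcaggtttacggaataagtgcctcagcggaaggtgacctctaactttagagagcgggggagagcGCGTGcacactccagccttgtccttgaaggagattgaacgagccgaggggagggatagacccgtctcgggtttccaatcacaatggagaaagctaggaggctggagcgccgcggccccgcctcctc

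Ldha had 2 windows, of which the first listed is printed. That window held 2 copies of the E-box CACGTG, each of which reads ACGTG on both strands, and 1 further ACGTG on the opposite strand. The Slc16a3 window held 1 ACGTG, and those of Slc2a1 and Ldhb 1 GCGTG each. The windows of Slc16a3 and Ldha lie within the gene bounds of the GENCODE annotation, downstream of a more distant annotated start. Promoters of 31 of the 32 genes were found, in 47 windows of 300 bases (250 before the start and 50 after it), and a gene was counted once if any of its windows matched. ACGTG was present on either strand for 19 of the 31 genes, beside 21.8% of the 27025 genes in the promoter table, and GCGTG for 21 of 31, beside 35.2%. The E-box CACGTG, which contains ACGTG, was present for 6 genes (8.09% of all), and AAGGTCA, the half-site of the pluripotency factor ESRRB, for 2 genes, Eno1 and Tpi1 (5.38% of all). Of the 16 genes that were higher in Srrm2+/-, 9 held ACGTG and 10 held GCGTG, beside 19 and 21 of all 31 genes of the set. The higher genes thus held each core in no larger share than the set as a whole. The set and the promoter table were not matched for the number of windows per gene or for base composition, so these shares are descriptive. A match describes letters in the window and not binding.

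Of the 31 genes tested, 16 were higher in Srrm2+/-, 3 were lower and 12 were not called. Over all genes tested, 25.3% were called, 13.6% higher and 11.7% lower. For the 31 genes the median log2 fold change was 0.20, for all genes -0.00, and single genes ran from -0.73 (Pfkp) to 1.12 (Slc2a1). Among the 28 of these genes with a mean of at least 10 CPM, 15 were higher and 3 lower. The 8398 genes of the table at that level were higher in 15.4% and lower in 17.7% of cases. Most changes were small, with 13 of the 19 called genes under 0.5 in absolute log2 fold change, 4 between 0.5 and 1, and 2, Slc2a1 and Slc16a3, over 1. Slc16a3 was below 1 without WT replicate 2 (0.94), WT replicate 3 (0.95) or Srrm2+/- replicate 3 (0.89), which leaves 1 gene over that limit. Called genes of that size, in either direction, made up 6.1% of all genes. The groups did not overlap for 22 of the 31 genes, beside 41.4% of all genes, and these were the 19 called genes together with Pfkfb2, Gapdh and Pdk3.

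**Figure D1:**
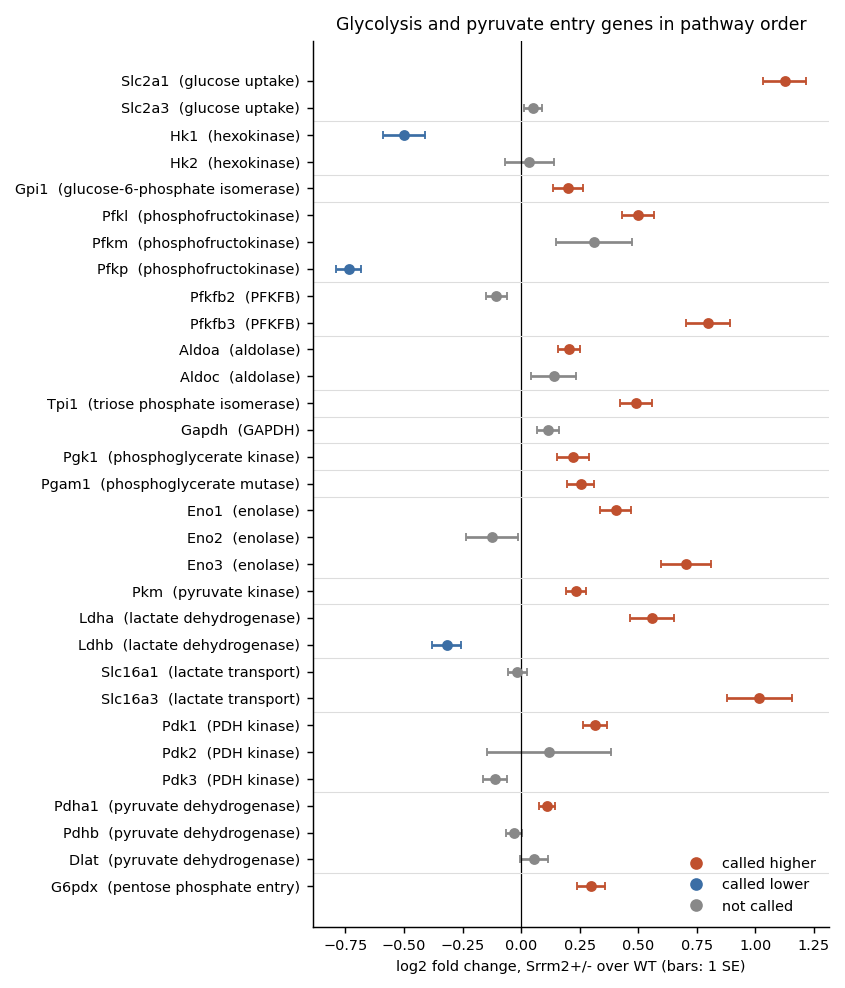
The log2 fold change (Srrm2+/- over WT, x axis) of the 31 tested genes in pathway order (y axis), with bars of 1 SE and colours for genes called higher, called lower or not called. The 16 genes called higher occur from uptake to the pentose phosphate branch, and the 3 called lower are Hk1, Pfkp and Ldhb.

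Glucose enters these cells through GLUT1, encoded by Slc2a1 (chr4:119108711-119137983), and GLUT3, encoded by Slc2a3 (chr6:122727809-122801640), a high-affinity transporter. Slc2a1 was at 116, 90.0 and 91.7 CPM in the WT replicates and at 222, 203 and 223 in the Srrm2+/- replicates. All Srrm2+/- values lay far above all WT values, and the 2.18-fold rise (log2 1.12, SE 0.09, adjusted p = 4.45e-05) was the largest of the set. Slc2a3 was at 1077, 1064 and 1097 CPM in WT and at 1082, 1134 and 1136 in Srrm2+/-. These groups overlapped, and the log2 fold change of 0.05 (SE 0.04) was not called (adjusted p = 0.396). Per kilobase of exon, Slc2a3 remained the more abundant transcript, at 149 against 28.3 CPM per kilobase in WT and 154 against 61.6 in Srrm2+/-.

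Hexokinase traps glucose as glucose-6-phosphate. The gene of the housekeeping form, Hk1 (chr10:62268855-62379908), was at 18.9, 23.3 and 22.4 CPM in WT and at 14.1, 14.9 and 16.6 in Srrm2+/-, a 1.41-fold fall (log2 -0.50, SE 0.09, adjusted p = 0.00387). Hk2 (chr6:82725025-82774454), the inducible form, was at 187, 221 and 197 CPM in WT and at 174, 211 and 235 in Srrm2+/-. The 3 values of Srrm2+/- spanned those of WT, and Hk2 was not called (log2 fold change 0.04, SE 0.10, adjusted p = 0.846). Since Hk2 held 93.1% of the summed hexokinase level per kilobase in WT and 95.1% in Srrm2+/-, the total was 36.3 ± 3.16 and 36.4 ± 5.31 CPM per kilobase (SD, n = 3), with p = 1 in an exact two-sided permutation test. The next enzyme, glucose-6-phosphate isomerase, is encoded by Gpi1 (chr7:34201330-34230336), which stood at 133, 147 and 149 CPM in WT and at 164, 153 and 177 in Srrm2+/-. Its rise of 0.20 (SE 0.06, adjusted p = 0.0474) was near the threshold. The call was lost without WT replicate 1 (log2 fold change 0.15, adjusted p = 0.133), WT replicate 2 (0.22, 0.0739), WT replicate 3 (0.23, 0.0525), Srrm2+/- replicate 1 (0.20, 0.0960) or Srrm2+/- replicate 3 (0.15, 0.152).

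The 3 genes of phosphofructokinase, which commits sugar to glycolysis, diverged. Pfkl (chr10:77986947-78010083), the liver-type gene, was at 134, 127 and 133 CPM in WT and at 171, 178 and 206 in Srrm2+/-. It rose 1.41-fold (log2 0.50, SE 0.07, adjusted p = 0.000779). Pfkp (chr13:6579768-6648777), the platelet-type gene, was at 555, 568 and 558 CPM in WT and at 323, 322 and 365 in Srrm2+/-. It fell 1.66-fold (log2 -0.73, SE 0.05, adjusted p = 2.34e-05), which was the largest fall of the set, with the groups far apart. Pfkm (chr15:98092589-98132451), the muscle-type gene, was at 23.1, 25.1 and 15 CPM in WT and at 23.6, 27.7 and 27.2 in Srrm2+/-. The groups overlapped and the log2 fold change of 0.31 (SE 0.16) was not called (adjusted p = 0.207). Per kilobase, Pfkp supplied 61.7% ± 1.27 of the 3 genes' summed level in WT and 41.4% ± 0.938 in Srrm2+/- (SD, n = 3), while Pfkl supplied 29.0% ± 1.31 and 45.7% ± 0.835. The order of these genes therefore differed between the groups, with Pfkp above Pfkl in each WT library and below it in each Srrm2+/- library. The summed level was 67.8 ± 1.51 CPM per kilobase in WT and 60.7 ± 4.96 in Srrm2+/-, or 89.6% of WT. Srrm2+/- replicates 1 and 2, at 56.8 and 59.0, lay below all WT libraries, and replicate 3, at 66.3, within their range (exact two-sided permutation test, p = 0.2, with 0.1 the smallest possible).

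The PFKFB enzymes make and break down fructose 2,6-bisphosphate, the activator of phosphofructokinase. Pfkfb3 (chr2:11471433-11554077), whose product favours synthesis of the activator, was at 9.08, 8.49 and 7.47 CPM in WT and at 15.6, 14.7 and 13.2 in Srrm2+/-, a 1.74-fold rise (log2 0.80, SE 0.09, adjusted p = 0.000393). Pfkfb2 (chr1:130689182-130729253) was at 23.2, 23.3 and 23.3 CPM in WT and at 22.0, 21.7 and 21.1 in Srrm2+/-. Its groups did not overlap, but the difference of -0.11 (SE 0.05) was small and was not called (adjusted p = 0.133). Pfkfb4 (chr9:108991778-109032228) did not pass the filter, with 4, 87 and 0 estimated counts in WT and 66, 0 and 0 in Srrm2+/-. Pfkfb3 made up 25% ± 1.99 of the family's level per kilobase in WT and 38.6% ± 1.02 in Srrm2+/- (SD, n = 3).

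**Figure D2:**
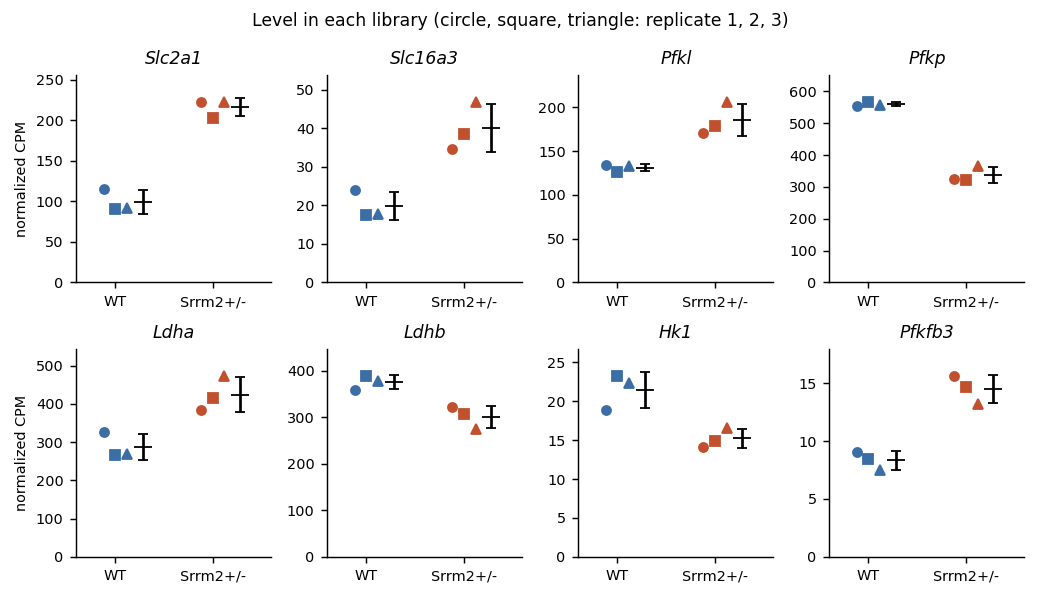
Normalized CPM (y axes, from 0) of 8 genes in each library of WT and Srrm2+/-, with replicates 1, 2 and 3 as circle, square and triangle and the mean with 1 SD in black. The groups do not overlap in any panel, and Pfkp, Ldhb and Hk1 are lower in Srrm2+/- while the other 5 genes are higher.

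From aldolase to pyruvate kinase, 7 of the 10 genes tested were higher in Srrm2+/- and 0 were lower by edgeR, with a median log2 fold change of 0.23. Over all genes tested, 13.6% were higher and 11.7% lower. Aldoa (chr7:126795234-126800751), the main aldolase gene here, was at 1056, 1054 and 1053 CPM in WT and at 1153, 1198 and 1295 in Srrm2+/- (log2 0.20, SE 0.05, adjusted p = 0.0130). Aldoc was at 18.1 ± 1.44 and 19.9 ± 2.50 CPM (SD, n = 3) and was not called (log2 0.14, SE 0.10, adjusted p = 0.341). Tpi1 (chr6:124810586-124814296), which interconverts the triose phosphates, was at 248, 223 and 225 CPM in WT and at 298, 321 and 359 in Srrm2+/-. At 1.40-fold (log2 0.49, SE 0.07, adjusted p = 0.00112) its rise was close to that of Pfkl in size.

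Gapdh (chr6:125161715-125166467), often taken as a constant reference in quantitative PCR, was at 2859, 3206 and 3100 CPM in WT and at 3361, 3258 and 3315 in Srrm2+/-. The lowest Srrm2+/- value stood above the highest WT value, yet the log2 fold change of 0.12 (SE 0.05) was not called (adjusted p = 0.112). Pgk1 (chrX:106187100-106203699), whose enzyme makes the first ATP of the pathway, was at 669, 556 and 587 CPM in WT and at 670, 698 and 743 in Srrm2+/-. It rose by 0.22 on the log2 scale (SE 0.07, adjusted p = 0.0476), with WT replicate 1 and Srrm2+/- replicate 1 almost equal. The call was lost without WT replicate 2 (log2 fold change 0.17, adjusted p = 0.136), WT replicate 3 (0.20, 0.123), Srrm2+/- replicate 1 (0.26, 0.0534), Srrm2+/- replicate 2 (0.23, 0.0996) or Srrm2+/- replicate 3 (0.18, 0.151). Pgk1 is also the gene whose reads are hardest to place, since 54.7% of the 31-base words of its transcripts occur in other genes. Its processed pseudogene Gm5537 (chr3:58102996-58104247), all of whose words lie in Pgk1, was listed at 140 ± 12.9 CPM in WT and 143 ± 15.8 in Srrm2+/- and was not called (log2 0.03, SE 0.09, adjusted p = 0.830). A second, Pgk1-rs7, was at 6.80 ± 1.65 and 4.86 ± 2.28 CPM (adjusted p = 0.317), and Pgk1 summed with its pseudogenes gave 0.18 (SE 0.06, adjusted p = 0.0479). Other pseudogenes with a mean of at least 1 CPM and at least 50% of their words in one of these genes were Gm6123 (Pdhb), Gm3272, Gm7336 and Gm12070 (Gapdh) and Gm4735 (Eno1), and none of them was called by edgeR, at adjusted p from 0.206 to 0.783.

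Pgam1 (chr19:41911923-41918660), the phosphoglycerate mutase gene, was at 399, 364 and 364 CPM in WT and at 439, 423 and 482 in Srrm2+/- (log2 0.25, SE 0.06, adjusted p = 0.0131). Eno1 (chr4:150236721-150248879), the ubiquitous enolase gene, was at 520, 527 and 510 CPM in WT and at 622, 681 and 756 in Srrm2+/-. Eno1 rose 1.32-fold (log2 0.40, SE 0.07, adjusted p = 0.00219), with each Srrm2+/- library above every WT library. The neuronal form Eno2 was at 6.24 ± 0.440 and 5.73 ± 0.613 CPM (SD, n = 3) and was not called (log2 -0.12, SE 0.11, adjusted p = 0.476). The muscle form Eno3 (chr11:70657202-70662513) rose from 4.43, 5.47 and 4.93 CPM to 7.51, 8.29 and 8.35 (log2 0.70, SE 0.11, adjusted p = 0.00149), a low level that left Eno1 with 95.9% of the enolase level per kilobase in WT and 95.6% in Srrm2+/-. The summed skeletal muscle markers given above moved the same way. Most of their rise was Acta1, at 0.260 ± 0.107 CPM in WT and 5.06 ± 0.833 in Srrm2+/- (SD, n = 3). Myh3 was not called (log2 0.20, SE 0.22, adjusted p = 0.568). The part of these markers in the Eno3 value was not tested. Pkm (chr9:59656368-59679375), which encodes pyruvate kinase M, was at 3310, 3107 and 3281 CPM in WT and at 3709, 3730 and 3967 in Srrm2+/- (log2 0.23, SE 0.04, adjusted p = 0.00455). Gene counts do not separate its spliced forms PKM1 and PKM2.

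Lactate dehydrogenase interconverts pyruvate and lactate, and its A and B subunits assemble into tetramers of different affinity. Ldha (chr7:46841475-46855627), whose subunit favours lactate formation, was at 326, 267 and 269 CPM in WT and at 383, 414 and 473 in Srrm2+/-, a 1.47-fold rise (log2 0.56, SE 0.09, adjusted p = 0.00268). Ldhb (chr6:142490249-142507957) was at 360, 389 and 379 CPM in WT and at 322, 307 and 275 in Srrm2+/-, a 1.25-fold fall (log2 -0.32, SE 0.06, adjusted p = 0.00505). Both differences exceeded the spread between replicates, in opposite directions. Ldha made up 26.6% ± 3.01 of the summed level per kilobase in WT and 40.0% ± 4.49 in Srrm2+/- (SD, n = 3). The total was 326 ± 3.09 CPM per kilobase in WT and 320 ± 1.47 in Srrm2+/-, or 98.1% of WT (exact two-sided permutation test, p = 0.1). With the length of the longest transcript in place of the union of exons, the total was 104% of WT, and Ldha rose from 35.4% to 50.2% of it, so neither the direction of the total nor the order of the genes in Srrm2+/- was settled.

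**Figure D3:**
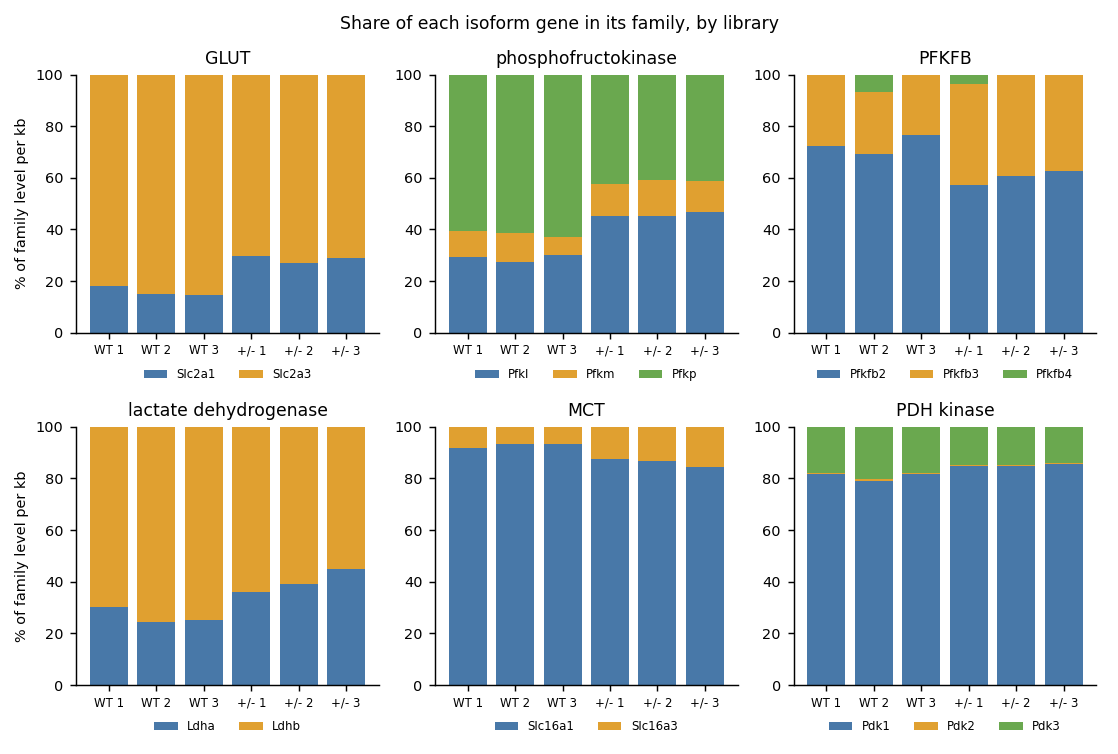
Share of each isoform gene (stacked bars, y axis in % of its family's summed level per kilobase) in the 3 WT and 3 Srrm2+/- libraries (x axis), for glucose transporters (GLUT), phosphofructokinase, PFKFB, lactate dehydrogenase, monocarboxylate transporters (MCT) and pyruvate dehydrogenase (PDH) kinases. The Pfkp share falls from 61.7% to 41.4% on average, and the Ldha share rises from 26.6% to 40.0%.

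The exporters of lactate also differed. Slc16a3 (chr11:120948480-120960868), which encodes MCT4, a carrier typical of strongly glycolytic cells, was at 24.0, 17.5 and 17.8 CPM in WT and at 34.7, 38.6 and 46.9 in Srrm2+/-. It rose 2.02-fold (log2 1.02, SE 0.14, adjusted p = 0.000864), with the lowest Srrm2+/- library above the highest WT library. Slc16a1 (chr3:104638668-104658462), which encodes the widely expressed MCT1, was at 219, 205 and 206 CPM in WT and at 202, 209 and 212 in Srrm2+/- and was not called (log2 -0.02, SE 0.04, adjusted p = 0.825). MCT4 remained the minor transcript of the pair, at 7.23% ± 0.976 of their level per kilobase in WT and 13.8% ± 1.56 in Srrm2+/- (SD, n = 3).

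Pyruvate dehydrogenase turns pyruvate into acetyl-CoA, and its kinases switch it off by phosphorylation. Pdk1 (chr2:71873224-71903858), the most abundant kinase gene here, was at 339, 306 and 329 CPM in WT and at 406, 388 and 419 in Srrm2+/-, a 1.25-fold rise (log2 0.32, SE 0.05, adjusted p = 0.00194). Pdk3 was at 24.3, 25.9 and 23.8 CPM in WT and at 23.2, 22.4 and 22.9 in Srrm2+/-, without overlap but not called (log2 -0.11, SE 0.05, adjusted p = 0.157). Pdk2 was scarce, at 0.586 ± 0.141 and 0.638 ± 0.0782 CPM (SD, n = 3), and was not called (adjusted p = 0.793). Among the subunits of the complex, Pdha1 (chrX:160122209-160138413), the E1 alpha gene, was at 406, 403 and 411 CPM in WT and at 436, 441 and 440 in Srrm2+/-. This small difference was called (log2 0.11, SE 0.03, adjusted p = 0.0482), and the call was lost with any 1 library left out, at log2 fold changes from 0.10 (without WT replicate 2) to 0.12 (without WT replicate 3) and adjusted p from 0.0696 (without Srrm2+/- replicate 1) to 0.119 (without WT replicate 2). The genes of its partner E1 beta, Pdhb, at 215 ± 3.86 and 211 ± 2.36 CPM, and of E2, Dlat, at 81.3 ± 5.03 and 84.4 ± 5.59 CPM, were not called (adjusted p = 0.596 and 0.572). G6pdx (chrX:74409483-74429194), which encodes glucose-6-phosphate dehydrogenase at the entry of the pentose phosphate pathway, was at 62.9, 72.8 and 69.2 CPM in WT and at 81.2, 81.5 and 89.1 in Srrm2+/- (log2 0.30, SE 0.06, adjusted p = 0.00731).

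Per kilobase of exon, the levels of the set covered a wide range. In WT, Gapdh (739 ± 43.0 CPM per kilobase) and Pkm (646 ± 21.9) stood highest, followed by Aldoa (362 ± 0.463), Pgk1 (269 ± 25.9), Ldhb (240 ± 9.53), Pgam1 (190 ± 10.3) and Slc2a3 (149 ± 2.24; SD, n = 3 for each). In Srrm2+/- the order at the top was Gapdh (801 ± 12.5), Pkm (760 ± 28.6), Aldoa (417 ± 24.9), Pgk1 (314 ± 16.4), Pgam1 (226 ± 15.3) and Ldhb (192 ± 15.2). Ldhb and Pgam1 thus changed places. With the longest transcript as length Pkm stood above Gapdh in both groups, at 1329 against 929 CPM per kilobase in WT. Eno1 then stood above Pgam1, at 256 against 212 in WT and 339 against 252 in Srrm2+/-. The first rank and some lower ranks therefore depend on the length used. At the other end in WT were Pfkfb4, at 0.108 ± 0.174 CPM per kilobase with counts too low to test, and Pdk2, at 0.185 ± 0.0445. Summed over all 32 genes, normalized expression was 13434, 13346 and 13440 CPM in WT and 14686, 14818 and 15646 in Srrm2+/-. This sum is not scaled for length and weighs the abundant genes most. Its largest parts were Pkm, with means of 3232 CPM in WT and 3802 in Srrm2+/-, and Gapdh, at 3055 and 3311 and not called. Among the 16 higher genes, Srrm2+/- replicate 3 gave the highest value of its group for 14, and WT replicate 1 the highest of its group for 11. The direction of every called gene was kept without either library.

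In each of the 9 isoform families the share of every gene was tested over the libraries with an exact two-sided permutation test. Its smallest possible p is 0.1 for 3 against 3, and 1 gene per family entered the adjustment over the families. The shares of Slc2a1, Hk1, Pfkl, Pfkfb2, Ldha, Slc16a1 and Pdk1 did not overlap between the groups (exact p = 0.1 each, 0.129 after adjustment over the families). Those of Aldoa, 98.5% in WT and 98.6% in Srrm2+/- (exact p = 0.4), and of Eno1 (exact p = 0.3) overlapped. Among the other genes of the larger families, the shares of Pfkfb4 (exact p = 0.7) and Pdk2 (exact p = 0.6) overlapped. Those of Pfkm, 9.28% and 12.9%, and of Pfkp, Pfkfb3 and Pdk3 did not (exact p = 0.1 each). The small shares of Eno2, 1.32% and 0.924%, and Eno3, 2.82% and 3.48%, did not overlap either (exact p = 0.1 each). The summed level per kilobase was higher in Srrm2+/- for glucose transporters, at 122% of WT, for enolase, at 133%, for PDH kinases, at 119%, for aldolase, at 115%, and for PFKFB, at 112%, each without overlap (exact permutation p = 0.1, adjusted 0.15). The MCT pair overlapped, at 106% of WT (exact permutation p = 0.2).

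Genes of adjoining pathways were read from the same fit, by lists chosen for function, and their counts stand beside 13.6% higher and 11.7% lower over all genes tested. Of the 23 tested among 29 further isoform and pyruvate entry genes, 1 was higher and 4 were lower, with a median log2 fold change of -0.09. Tigar, which lowers fructose 2,6-bisphosphate, fell from 69.6 ± 2.27 to 51.4 ± 2.29 CPM (SD, n = 3; log2 -0.44, SE 0.05, adjusted p = 0.000207). The gene of the MCT2 carrier, Slc16a7, held 0, 0 and 6 estimated counts in WT and 30, 22 and 30 in Srrm2+/- (adjusted p = 0.0151). This call at very low counts was lost without Srrm2+/- replicate 1 (log2 fold change 3.40, adjusted p = 0.0510) or Srrm2+/- replicate 3 (3.30, 0.0572). Pdha2, the testis form of E1 alpha, was at 1.27 ± 0.205 and 0.714 ± 0.142 CPM (log2 -0.83, SE 0.23, adjusted p = 0.0269), a call lost without WT replicate 2 (-0.69, 0.102), WT replicate 3 (-0.87, 0.0524), Srrm2+/- replicate 1 (-0.89, 0.0553) or Srrm2+/- replicate 3 (-0.67, 0.0891). In the remainder of the pentose phosphate pathway, 7 of 8 genes were tested and 1 was higher, Pgls, at 44.9 ± 1.94 and 52.8 ± 2.52 CPM (log2 0.23, SE 0.05, adjusted p = 0.0104).

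None of the 16 genes of the tricarboxylic acid cycle was higher by edgeR and 3 were lower, with a median of -0.04, beside 25.3% of all genes called and 11.7% lower. Sdhb, the iron-sulphur subunit of succinate dehydrogenase, fell from 164 ± 9.59 to 133 ± 2.40 CPM (log2 -0.30, SE 0.05, adjusted p = 0.00189). Idh3g, a subunit of isocitrate dehydrogenase, fell from 160 ± 5.09 to 132 ± 5.11 CPM (log2 -0.27, SE 0.04, adjusted p = 0.00191). Sdha was at 219 ± 3.85 and 201 ± 2.84 CPM (log2 -0.12, SE 0.04, adjusted p = 0.0347), and its call was lost without any 1 of the libraries other than WT replicate 1, at log2 fold changes of -0.13 to -0.11 and adjusted p from 0.0573 (without Srrm2+/- replicate 1) to 0.117 (without Srrm2+/- replicate 2). Among 14 tested genes of gluconeogenesis and glycogen metabolism, 0 were higher by edgeR and 2 were lower. These were Gys1, the glycogen synthase gene (log2 -0.29, SE 0.09, adjusted p = 0.0394), and Pgm2 (log2 -0.22, SE 0.05, adjusted p = 0.00838), and the call of Gys1 was lost without any 1 of the libraries other than WT replicate 1, at log2 fold changes of -0.33 to -0.21 and adjusted p from 0.0629 (without Srrm2+/- replicate 3) to 0.133 (without WT replicate 2).

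**Figure D4:**
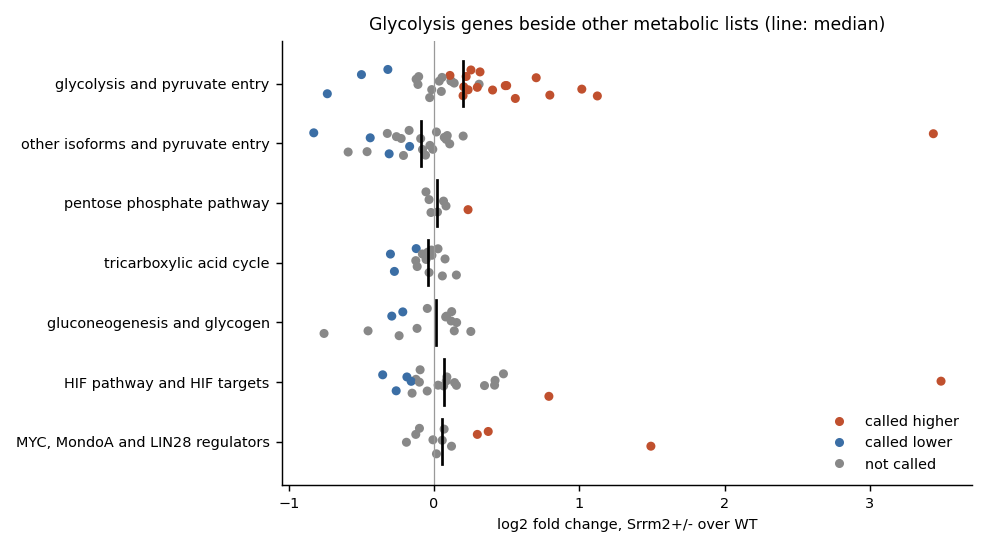
The log2 fold change (Srrm2+/- over WT, x axis) of each tested gene of the glycolysis set and of 6 adjoining lists (y axis, spread vertically for legibility), coloured by call, with a line at each median. The median is 0.20 for the glycolysis set and between -0.09 and 0.07 for the other lists.

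Regulators that act on glycolytic genes formed the last lists. Hif1a, the oxygen-sensitive HIF subunit, was at 213 ± 7.0 CPM in WT and 223 ± 8.96 in Srrm2+/- (SD, n = 3) and was not called (log2 0.07, SE 0.04, adjusted p = 0.333). Of 21 genes of the HIF pathway and HIF targets outside glycolysis, 2 were higher and 4 were lower, with a median of 0.07. The higher genes were Adm, which encodes adrenomedullin and held 6, 4 and 5 estimated counts in WT and 67, 84 and 56 in Srrm2+/- (log2 3.49, SE 0.31, adjusted p = 6.87e-05), and Ddit4, an inhibitor of mTORC1 signalling, which rose from 33.2 ± 1.78 to 57.3 ± 1.65 CPM (log2 0.79, SE 0.05, adjusted p = 1.21e-05). Kdm3a, a histone demethylase, was lower (log2 -0.35, SE 0.10, adjusted p = 0.0268). Its call was lost without WT replicate 1 (-0.28, 0.0870), Srrm2+/- replicate 1 (-0.27, 0.0789) or Srrm2+/- replicate 2 (-0.33, 0.0908). Of the 11 genes of MYC and its partners, of the glucose sensor MondoA (Mlxip) and its targets, and of the LIN28 proteins, 3 were higher and 0 lower by edgeR, with a median of 0.06. Myc rose 2.81-fold from 3.47 ± 0.530 to 9.77 ± 0.687 CPM (log2 1.49, SE 0.13, adjusted p = 5.42e-05). Lin28a, an RNA-binding protein of pluripotent cells, rose from 412 ± 10.5 to 533 ± 19.4 CPM (log2 0.37, SE 0.04, adjusted p = 0.000299), and Lin28b from 56.3 ± 1.35 to 69.2 ± 3.25 CPM (log2 0.30, SE 0.05, adjusted p = 0.00159). The more abundant Mycn, at 115 ± 6.52 and 125 ± 8.46 CPM, was not called (log2 0.12, SE 0.06, adjusted p = 0.185). Whether any of these genes bears on the glycolytic transcripts was not tested. Of the 92 genes tested in the 6 adjoining lists, 20 were called, beside 25.3% of all genes tested, and 13 were called without Srrm2+/- replicate 3.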

How the data were processed

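Total RNA from 3 WT and 3 Srrm2+/- mESC cultures was sequenced in pairs of 75-base reads with a stranded kit. Reads were assigned by the authors to transcripts of GENCODE release M24 (mm10, GRCm38) using Kallisto 0.46.1, and the deposited table holds unnormalized estimated counts for each gene. Its strand option, and whether the gene list was filtered, are not given in the sources used here. Where transcripts share sequence the program apportions their reads, so that counts of near-identical genes are uncertain. Groups and replicate numbers came from the sample titles.

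Counts were rounded to whole numbers. Symbols, positions and lengths came from GENCODE release M21, to which 42156 of the 42450 identifiers matched. Genes past filterByExpr (minimum count 10, minimum total 15) were tested with edgeR 4.0.16 in R 4.3.3 (two-sided glmQLFTest after glmQLFit and TMM) on genotype alone, with Benjamini-Hochberg adjustment over all genes tested. The SE is the size of the log2 fold change over the square root of F. CPM used TMM-scaled library sizes, and levels per kilobase the union of exons. Shares and summed levels of isoform families were compared by exact two-sided permutation tests over the 6 libraries. P-values measure the spread between the 3 thawed batches of each line. Scripts were tested on simulated data.

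Genes were named by rule, namely Srrm2, the 32 genes of the set, from each adjoining list up to 3 called genes with the largest absolute change, Hif1a, Myc and Mycn, and pseudogenes sharing at least 50% of their 31-base words with a gene of the set at a mean of at least 1 CPM. Stem cell, muscle and trophoblast marker genes were named in addition, after their values were seen. The members and lists were chosen with earlier results of these data known. The alternatives were RLE and upper quartile scaling, DESeq2 1.42.0, limma 3.58.1 voom, other filters on low counts, a table without short RNA genes, rRNA genes and those of mitochondria, a block for the replicate number, 1 library left out at a time, pseudogene copies summed, stricter call rules and the longest transcript as length. Summing copies of any type was chosen after seeing the data. Splicing and other experiments of the study were not analysed here.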

Additional observations from a re-analysis of the deposited data

How the results depend on the processing

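Over the 16 alternatives with a new fit, the 3 lower genes kept their direction and call, as did 13 of the 16 higher genes, and the exceptions Gpi1, Pgk1 and Pdha1 lost their calls in 7, 7 and 9 of them without changing direction. The number of higher genes, 16, was 14 with RLE scaling, 15 with a filter of at least 1 count, 15 with copies summed and 13 to 14 with 1 library left out, and the number of lower genes remained 3 in each of these. At an adjusted p under 0.01, 11 genes were higher and 3 lower, and 2779 of 4781 calls over all genes were left. When calls also had to reach 1 in absolute log2 fold change, 2 genes were higher (1 without WT replicate 2, WT replicate 3 or Srrm2+/- replicate 3, where Slc16a3 was below 1), 0 were lower by edgeR and 1153 genes were called in all. Leaving out 1 library gave 3515 to 4122 calls over all genes, log2 fold changes of -0.72 to -0.65 for Srrm2 and 13 to 19 calls in the adjoining lists. The lowest value, 13, came without Srrm2+/- replicate 3, as did the lowest count over all genes, 3515. All of these fits had 1 library fewer, and the cause of the low values was not tested. Deviations from the group means did not go together for libraries with the same number (correlation -0.03 for each number). Libraries with different numbers were not compared, and whether libraries with the same number shared a batch was not tested. With the replicate number as a block, 14 genes of the set were higher and 3 lower, 17 genes of the adjoining lists and 4166 genes over the table were called, and Srrm2 was at -0.69. Some values near no change turned with 1 library left out, and their ranges were -0.066 (without Srrm2+/- replicate 3) to 0.147 for Hk2, which was also at -0.016 without WT replicate 1, and -0.030 to 0.014 (without WT replicate 1) for Slc16a1, which was at 0.0051 without Srrm2+/- replicate 1. Pdk2 ranged from -0.057 (without WT replicate 1) to 0.284, and the pseudogene Gm5537 from -0.061 (without Srrm2+/- replicate 3) to 0.105, with -0.030 without WT replicate 1. The difference in share ranged from -2.33 to 1.06 percentage points for Pfkfb4 and from -0.0838 to 0.0137 for Pdk2, each highest without WT replicate 2. The summed hexokinase level ranged from 93.5% to 108% of WT, and was below it at 96.6%, 99.4%, 99.4% and 93.5% without WT replicate 1, WT replicate 3, Srrm2+/- replicate 2 and Srrm2+/- replicate 3, and at 98.7% with the longest transcript as length, which also put lactate dehydrogenase at 104% of WT. The cause of these turns was not tested. No scaling moved the median of all genes by more than 0.1 on the log2 scale. Because every scaling used centres the bulk of the genes, this does not check the scale itself. The RNA spike-ins that the study added were not used for scaling here. Among the named genes of the set and the adjoining lists, depth limits Pfkfb4, Pdk2, Pdha2, Slc16a7 and Adm, whose counts were below 100 in every library.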
